A study of Mus musculus with 24 samples.

Results

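Neuronal nuclei of the hippocampus from Ogg1-/- mice were compared with those of WT mice by their nuclear RNA. The comparison uses the 3 libraries labelled Ogg1-/- and the 3 labelled WT among the nuclei that carry NeuN, 6 of the 24 libraries of the series, and covers the 30132 genes with enough counts to be tested out of 55254 in the count table. Nuclei were isolated from hippocampi of male C57BL/6N mice aged 6 months, stained for NeuN, which is the product of Rbfox3 and marks nuclei of neurons, and sorted into a NeuN+ and a NeuN- fraction. By the labels, WT mice carry neither deletion, Ogg1-/- mice carry that of Ogg1, Mutyh-/- mice that of Mutyh, and DKO mice both. No group received a treatment, and all groups share the age, the strain background and the sort. The methods describe pools of animals, and it is not clear if a replicate is an animal, a pool or a share of a pool. The p-values therefore measure only the spread between these libraries, which may be technical.

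Ogg1 encodes the DNA glycosylase that removes the oxidised base 8-oxoguanine when it is paired with cytosine. Mutyh encodes the glycosylase that removes adenine placed opposite the same lesion. Both enzymes open the base excision repair pathway, in which an endonuclease, a polymerase and a ligase then restore the strand. Neurons use much oxygen and do not divide, so their DNA relies on this pathway for oxidised bases.

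WT libraries held 64759050 to 67220387 counts in all and Ogg1-/- libraries 66147375 to 96192142, so the Ogg1-/- libraries were on the whole the deeper ones. One library stood apart. Ogg1-/- replicate 3 had a count in 42232 genes, whereas the other 11 NeuN+ libraries had counts in 37442 to 39692, and 1253 genes were counted in that library only against 86 to 286 in each of the others. Whether calls were kept without it is given with the results. The neuronal label was checked against marker genes. Rbfox3 had 1347 ± 23.7 CPM (the count relative to the library size, which was scaled by the TMM method of edgeR) in WT and 1469 ± 57.8 in Ogg1-/- (SD, n = 3). Of the 8 neuronal markers, which include Rbfox3, 3 were above WT and 5 below, with a median log2 fold change of -0.09. Their summed level was 5707 to 5976 CPM in WT and 5812 to 6242 in Ogg1-/-. None of the 11 marker lists, for neurons, dentate gyrus, CA1, CA3 and CA2, interneurons, oligodendrocytes and their precursors, astrocytes, microglia, vessels and choroid plexus, held a DEG. The summed level of the 6 oligodendrocyte markers was 111 to 115 CPM in WT and 110 to 129 in Ogg1-/-, and that of the 6 microglial markers 78.6 to 79.8 and 79.4 to 81.4, with no marker of any list at 0 counts over the 6 libraries. DEGs were 0.574% of all tested genes, so lists this short can hold none. Several marker lists had medians below WT without a DEG. All 4 tested choroid plexus markers were below WT with a median log2 fold change of -0.55, and their summed level was 18.9 to 26.2 CPM in WT and 15.6 to 18.4 in Ogg1-/-, with no overlap. The medians were -0.20 for 3 oligodendrocyte precursor markers, -0.17 for 14 interneuron markers, -0.12 for 7 astrocyte markers, -0.11 for 8 dentate gyrus and for 7 CA1 markers, and the summed levels of these 5 lists overlapped between the genotypes. The part of these cells in the results was not tested.

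The RNA of Ogg1 itself was examined first. This gene lies on the plus strand of chromosome 6 (GRCm38), 113326972 to 113335068. It had 2.54, 3.49 and 3.10 CPM in the WT libraries and 3.34, 3.16 and 2.95 CPM in those labelled Ogg1-/-. The ranges overlapped. The log2 fold change was 0.05 with a 95% interval from -0.18 to 0.27 (adjusted p = 0.916 by the quasi-likelihood test of edgeR, adjusted after Benjamini and Hochberg over all tested genes like every adjusted p here). A count over a whole gene does not show which exons were read, so this value checks nothing about a deletion of part of Ogg1. Mutyh was likewise not low where the labels give its loss, since WT averaged 1.14 CPM, the Mutyh-/- libraries 10.1 ± 0.915 and the DKO libraries 9.08 ± 1.79 (SD, n = 3). Genotypes are therefore those of the labels, and each genotype name stands for the libraries so labelled. Camk1, a calcium/calmodulin-dependent kinase gene on the opposite strand whose end overlaps that of Ogg1, had 10.1, 11.6 and 10.3 CPM in WT and 7.99, 7.10 and 7.98 CPM in Ogg1-/-. The 3 Ogg1-/- libraries were all below WT, by a log2 fold change of -0.47 (standard error 0.08, adjusted p = 0.0101), which is inside the fold limit, so Camk1 was not a DEG. Whether the counting used strand is not given in the sources used here, and reads of the overlap cannot be assigned to one of these genes with certainty.

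Few genes differed between Ogg1-/- and WT neuronal nuclei, and many of those that differed most lay together on a few chromosomes. A DEG (differentially expressed gene) had to pass an adjusted p of 0.05 and a log2 fold change beyond 0.5 in either direction. There were 173 DEGs, 0.574% of the tested genes, of which 55 were higher (0.183%) and 118 lower (0.392%). Of these DEGs, 61 had changed more than 1 on the log2 scale, 35 of them higher and 26 lower. In all 173 the libraries of both genotypes did not overlap, so a lack of overlap adds nothing to the call of a single DEG. Without the fold limit, 331 genes passed, or 1.1%, and at an unadjusted p under 0.05 there were 3718, or 12.3%. Of the 173 DEGs, 89 were protein coding, 17 were processed pseudogenes and 17 unprocessed pseudogenes. The 17 unprocessed pseudogenes were 4.66% of the 365 tested, whereas 0.536% of the 16600 tested protein-coding genes were DEGs.

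The higher and the lower genes differed in how often they were still called when 1 library was left out. Of the 55 higher DEGs, 40 were called in each of the 6 fits that left out 1 library, against 24 of the 118 lower DEGs. Without Ogg1-/- replicate 3, the library that stood apart, there were 74 DEGs, 43 higher and 31 lower. Leaving out Ogg1-/- replicate 2 gave 70, 42 higher and 28 lower, and leaving out WT replicate 1, 2 or 3 gave 110, 75 and 78. In contrast, leaving out Ogg1-/- replicate 1 gave 164, 47 higher and 117 lower, of which 126 were among the 173. By DESeq2's Wald test there were 238, 54 higher and 184 lower, and 154 of the 173 were called by both tools.

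**Figure D1:**
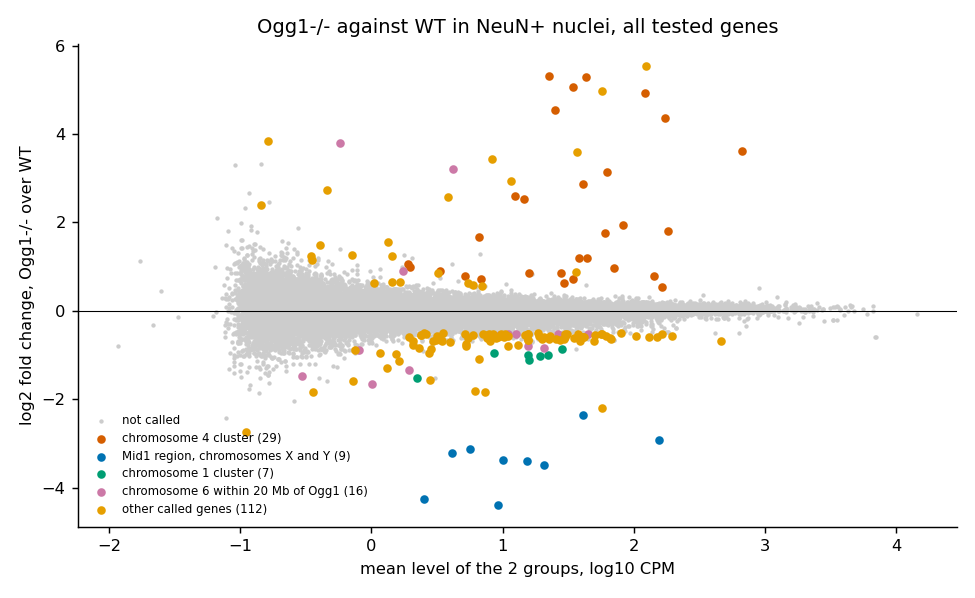
Log2 fold change of each tested gene in NeuN+ nuclei, Ogg1-/- over WT (vertical axis), against its mean level in log10 CPM (horizontal axis), with 1 point per gene and DEGs coloured by position group. Orange points of the chromosome 4 cluster reach a log2 fold change of 5.32, blue points of the Mid1 region lie between -4.39 and -2.36, and most other DEGs lie just beyond the fold limit on the lower side.

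Chaining DEGs that lie within 1 Mb of each other gave 10 groups of at least 3, which held 66 of the 161 DEGs with a position. The largest lay on chromosome 4 between 41657498 and 43759462, a stretch with 81 tested genes, of which 29 were DEGs and all 29 were higher. The stretch is known for near-identical copies of the chemokine genes Ccl21 and Ccl27, of the receptor gene Il11ra and of the Fam205a family, among which reads could have been split or shared, so the level of a single copy is uncertain. Gm17167, a processed transcript from 42206998 to 42235313, had 102, 91.6 and 110 CPM in WT and 1207, 1314 and 1183 CPM in Ogg1-/-. The lowest Ogg1-/- library was more than any WT library by a wide margin. The fold change was 12.2 (3.61 on the log2 scale with a standard error of 0.16, adjusted p = 1.93e-09).

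Within the same stretch Gm10600 rose most among genes annotated as protein coding. It had 2.08, 1.99 and 2.46 CPM in WT and 78.5, 88.3 and 88.0 CPM in Ogg1-/-, a fold change of 39.0 (log2 fold change 5.29, standard error 0.37, adjusted p = 4.43e-07). Ccl21b and Ccl21d, which encode the CCL21 chemokine that draws lymphocytes and dendritic cells through the receptor CCR7, have no unique position in the annotation used here. Ccl21b rose from 2.69 ± 0.195 to 20.5 ± 0.971 CPM (SD, n = 3), by 2.93 on the log2 scale (standard error 0.13, adjusted p = 2.14e-09). For Ccl21d the values were 1.42 ± 0.0841 and 15.2 ± 0.347 CPM, higher by 3.43 on the log2 scale (adjusted p = 5.89e-10). Both chemokine genes were at a low level in every WT library and higher in every Ogg1-/- library.

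Other genes of the stretch rose less than these. Fam205a3 and Fam205a4 rose by 1.20 and 1.19 on the log2 scale (adjusted p = 1.63e-08 and 7.62e-09), and Fam205a1 by 0.63 (standard error 0.10, adjusted p = 0.00535). Cntfr, from 41657498 to 41697089 on the minus strand, encodes the binding subunit of the receptor for ciliary neurotrophic factor. It had 43.8, 44.9 and 55.4 CPM in WT and 103, 91.0 and 88.2 CPM in Ogg1-/-, so that every Ogg1-/- library exceeded every WT library. The log2 fold change was 0.97 (standard error 0.11, adjusted p = 1.96e-04). Spaar, which encodes a small lysosomal polypeptide that restrains mTORC1 signalling, rose from 1.23 ± 0.0920 to 2.57 ± 0.198 CPM (SD, n = 3, log2 fold change 1.06, standard error 0.12, adjusted p = 1.59e-04). A further 12 DEGs had no unique position, 7 of them higher. Among these Gm10599, picked after its value was seen, had the largest rise of all DEGs, by 5.54 on the log2 scale, and Fam205a2 and Il11ra2, named for families of this stretch, rose by 0.88 and 0.85 (adjusted p = 7.83e-07 and 0.0234). Of the 29 DEGs of the stretch, 27 to 28 were called in each fit without 1 library, and 27 in all 6 fits.

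**Figure D2:**
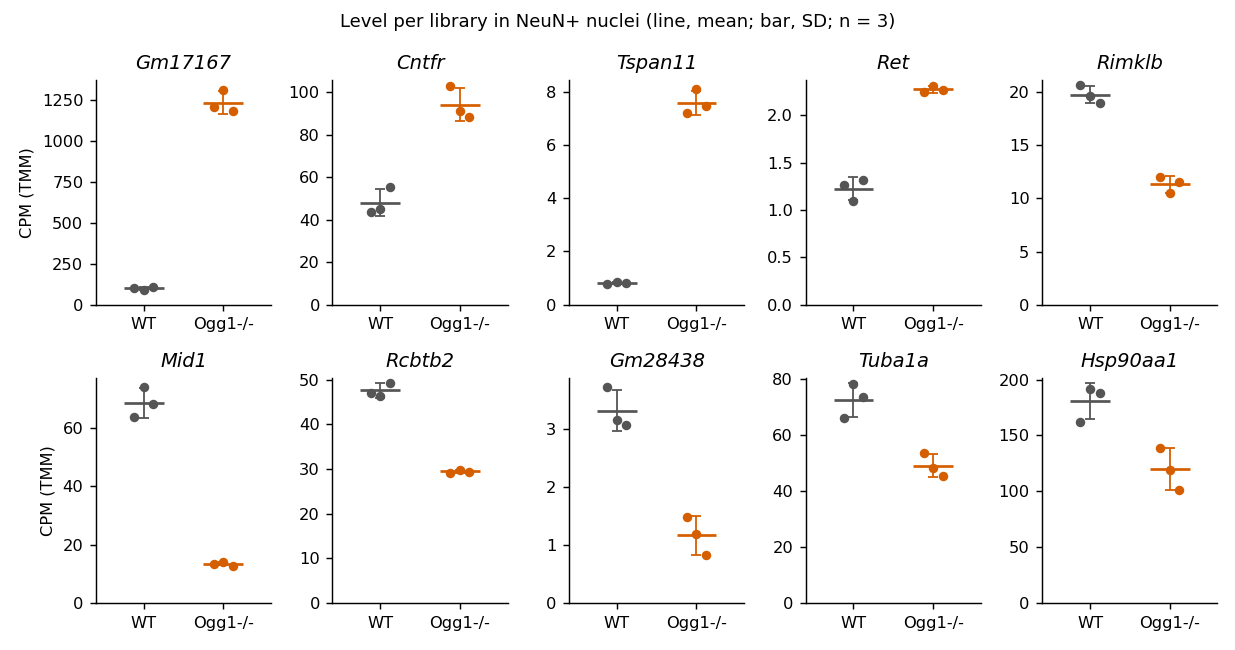
Level of 10 genes in CPM in each of the 3 WT (grey) and 3 Ogg1-/- (orange) NeuN+ libraries, with the mean as a line and the SD as a bar. The libraries of both genotypes do not overlap in any panel, which holds for all 173 DEGs. Gm17167 and Tspan11 are further apart than Tuba1a and Hsp90aa1, whose 3 Ogg1-/- libraries spread widely below WT.

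Genes on chromosome 6 near Ogg1 formed the next group. Among the 446 other tested genes with a midpoint within 20 Mb of Ogg1, 16 were DEGs, or 3.59%, whereas on the other chromosomes 143 of 27667 were DEGs, or 0.517%, and further away on chromosome 6 there were 2 of 1066, or 0.188%. All 16 lay on the side of the higher coordinates, at 2.49 to 19.8 Mb, and none of the 53 genes within 1 Mb of Ogg1 was a DEG. Of the 16, 3 were higher and 13 lower. Tspan11, a tetraspanin gene from 127887589 to 127953977 at 14.6 Mb from Ogg1, had 0.772, 0.854 and 0.829 CPM in WT and 7.23, 8.10 and 7.48 CPM in Ogg1-/-. The 3 Ogg1-/- libraries were all far above WT, with a fold change of 9.28 (log2 fold change 3.21, standard error 0.13, adjusted p = 1.21e-09). Gm15870 is annotated on the other strand inside Tspan11 and rose by 3.79 on the log2 scale (standard error 0.29, adjusted p = 1.35e-06), so the reads of the pair cannot be told apart without strand.

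Ret, at 4.84 Mb from Ogg1, encodes the receptor tyrosine kinase for ligands of the GDNF family. It had 1.26, 1.09 and 1.32 CPM in WT and 2.25, 2.32 and 2.26 CPM in Ogg1-/-, a log2 fold change of 0.89 (standard error 0.13, adjusted p = 0.00319), with no overlap between the genotypes. Rimklb, at 9.14 Mb, encodes a synthetase that joins glutamate to N-acetylaspartate to form the neuropeptide N-acetylaspartylglutamate. It was lower in every Ogg1-/- library, with 12.0, 10.5 and 11.6 CPM against 20.7, 19.7 and 19.0 CPM in WT (log2 fold change -0.80, standard error 0.07, adjusted p = 5.18e-06). Ano2, a calcium-activated chloride channel gene, fell from 26.6 ± 2.43 to 14.8 ± 1.79 CPM (SD, n = 3, log2 fold change -0.84, standard error 0.11, adjusted p = 6.27e-04).

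Other DEGs of chromosome 6 were lower and at a low level or close to the fold limit. Zfp248, a zinc finger gene, fell by 0.53 and Efcab12, a gene of an EF-hand protein, by 0.54 on the log2 scale (adjusted p = 1.83e-04 and 0.00466). The unnamed loci 4921513H07Rik and Gm42811, both at about 14.5 Mb, fell by 1.35 and 1.65, and Tex52 by 0.89 (adjusted p = 5.01e-06, 3.91e-05 and 0.0397). Gapdh, the glycolytic enzyme gene, also lies in this window at 11.8 Mb and fell by 0.53 (adjusted p = 0.0491). Its call was lost in each of the 6 fits that left out 1 library.

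**Figure D3:**
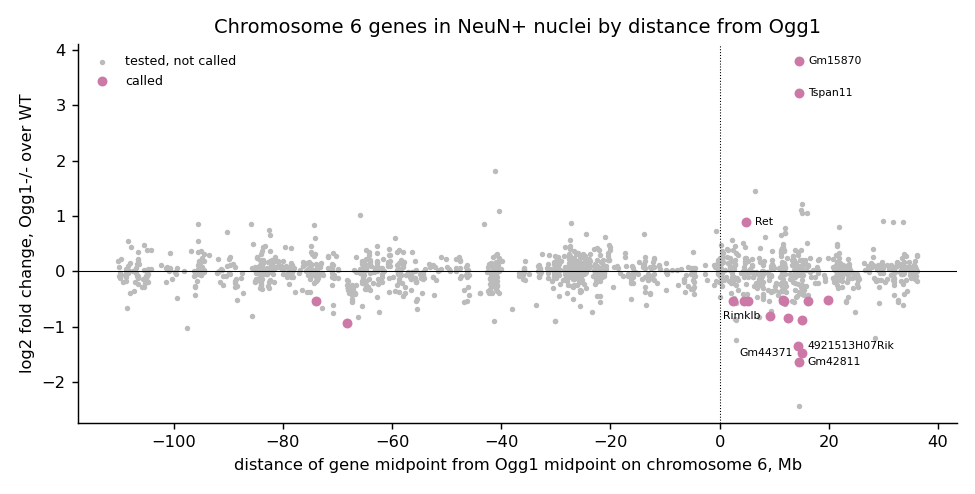
Log2 fold change in NeuN+ nuclei, Ogg1-/- over WT (vertical axis), of the tested chromosome 6 genes by the distance of their midpoint from that of Ogg1 in Mb (horizontal axis), with DEGs in pink. The DEGs gather between 2.49 and 19.8 Mb on the right of the dotted line at Ogg1, and Gm15870 and Tspan11 stand highest. The other 2 DEGs of the chromosome lie far to the left.

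The genes that fell most belonged to the end of chromosome X and its copies on chromosome Y. Mid1, from 169685199 to 170005736, encodes a ubiquitin ligase bound to microtubules, and its 3' part extends across the border of the pseudoautosomal region in laboratory mice. It had 63.6, 74.0 and 68.0 CPM in WT and 13.4, 13.9 and 12.8 CPM in Ogg1-/-. The 3 Ogg1-/- libraries lay close together and far below WT, at a log2 fold change of -2.36 (standard error 0.08, adjusted p = 1.26e-10). The antisense genes Gm15726 and Gm15247 and the transcript G530011O06Rik, which lie within Mid1, fell by 4.39, 4.26 and 3.12 on the log2 scale (adjusted p = 5.05e-07, 1.38e-07 and 4.86e-08).

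All 5 tested genes of the chromosome Y stretch from 90753057 to 90844040 were DEGs and lower. Mid1-ps1, a Mid1 pseudogene in it, had 33.9, 44.0 and 36.4 CPM in WT and 1.87, 6.14 and 1.96 CPM in Ogg1-/- (log2 fold change -3.48, standard error 0.35, adjusted p = 4.32e-05). Gm47283 had 254, 310 and 262 CPM in WT and 42.7, 55.8 and 10.5 CPM in Ogg1-/- (log2 fold change -2.92, standard error 0.39, adjusted p = 0.00112). Erdr1, which has no unique position here, had 88.9, 110 and 83.9 CPM against 22.6, 32.9 and 5.73 CPM (log2 fold change -2.21, standard error 0.38, adjusted p = 0.0122). For Gm47283 and Erdr1 the Ogg1-/- libraries differed among themselves, replicate 3 being the lowest in both. These genes share near-identical sequence, so that the level of each is uncertain. All 9 DEGs of both stretches were called in all 6 fits that left out 1 library, and Erdr1 in 5 of the 6.

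Further DEGs lay on chromosomes 14, 7, 8 and 2, and a further position group on chromosome 1. Of the genes named here on chromosomes 14, 7, 8 and 2, only Lacc1 was in a position group, with 1700108F19Rik and Gm10132. Rcbtb2, Esd, Lacc1 and Gm49200 lie on chromosome 14 between 73123037 and 77036904. Rcbtb2, a gene of the RCC1 repeat family, had 47.1, 46.4 and 49.4 CPM in WT and 29.2, 29.8 and 29.4 CPM in Ogg1-/- (log2 fold change -0.69, standard error 0.07, adjusted p = 2.85e-05). Esd encodes esterase D, which clears S-formylglutathione, and had 8.97, 9.10 and 8.98 CPM in WT and 4.33, 4.61 and 3.82 CPM in Ogg1-/- (log2 fold change -1.08, standard error 0.12, adjusted p = 1.13e-04). In both genes all Ogg1-/- libraries were below all WT libraries. Lacc1, a purine enzyme gene of myeloid cells, fell by 1.57, whereas the noncoding Gm49200 rose by 2.58 on the log2 scale (adjusted p = 0.00103 and 1.05e-05).

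On chromosome 7, Kirrel2, which encodes an adhesion molecule of the nephrin family, rose from 0.855 ± 0.127 to 2.01 ± 0.185 CPM (SD, n = 3, log2 fold change 1.24, standard error 0.15, adjusted p = 4.26e-04). Arhgap33os nearby rose from 0.120 ± 0.0137 to 0.799 ± 0.196 CPM (log2 fold change 2.72, standard error 0.27, adjusted p = 3.82e-05). On chromosome 8, the overlapping genes Gm3952 and Ccdc7a fell by 1.82 and 0.78 (adjusted p = 3.42e-07 and 1.42e-05), and Gm5535, a lincRNA on chromosome 2, fell by 1.83 (adjusted p = 1.72e-06). Cd59a, which encodes an inhibitor of the complement attack complex, had 1.84, 1.92 and 1.86 CPM in WT and 0.960, 0.754 and 0.586 CPM in Ogg1-/- (log2 fold change -1.30, standard error 0.19, adjusted p = 0.00295). Each of these genes was called in all 6 fits that left out 1 library.

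All 7 tested genes of a stretch on chromosome 1 from 24611535 to 24616197 were DEGs and lower. These unprocessed pseudogenes are nuclear copies of mitochondrial genes, and since the mitochondrial genes themselves were not analysed here, reads from either source cannot be told apart. Gm28438 had 3.73, 3.14 and 3.07 CPM in WT and 1.48, 1.18 and 0.822 CPM in Ogg1-/- (log2 fold change -1.53, standard error 0.21, adjusted p = 0.00132). Its 6 neighbours had log2 fold changes down to -1.10, and Gm28438 was the only one called in all 6 fits that left out 1 library. Without Ogg1-/- replicate 1, 4 of the 7 were called, and 1 of the 7 in each of the other 5 fits.

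Tuba1b, Gm49450 and Tuba1a on chromosome 15 and Tceal6, Bex2 and Bex3 on chromosome X formed further position groups, with 3 lower DEGs each. Outside the 10 position groups, most DEGs were lower. Of 107 DEGs outside the position groups, 85 were lower, 49 of them protein coding, and the median WT level of the 85 was 11.4 CPM. Their fold changes were small, with a median log2 fold change of -0.60 for the 85, and 9 of the 85 were called in all 6 fits that left out 1 library, whereas 58 were called in at most 1. In bulk nuclei, fewer cells of a type and less RNA per cell cannot be told apart. Across 51 gene lists, described here by counts and medians beside those of all tested genes (median log2 fold change 0.01, 47.8% lower than WT), the choroid plexus markers above had the lowest median, followed by the lists of tubulin and actin, ribosomal proteins, glycolysis, respiratory complexes III to V, translation factors and chaperones. The highest median, 0.10, was that of 12 nuclear long noncoding RNAs, of which 9 were above WT and none was a DEG. The lists were written with earlier results of these data known.

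The tubulin and actin list had 22 tested members, of which all 22 were below WT, with a median log2 fold change of -0.46, and 7 were DEGs. In 20 of the 22 the libraries of both genotypes did not overlap, against 19.3% of all tested genes. Tuba1a, which encodes the main alpha-tubulin of neurons, had 66.1, 78.3 and 73.7 CPM in WT and 53.6, 48.3 and 45.4 CPM in Ogg1-/- (log2 fold change -0.57, standard error 0.11, adjusted p = 0.0234). Actg1, which encodes cytoplasmic gamma-actin, had 71.3, 91.1 and 82.2 CPM in WT and 57.3, 53.3 and 47.2 CPM in Ogg1-/- (log2 fold change -0.63, standard error 0.14, adjusted p = 0.0397). In both genes the highest Ogg1-/- library was below the lowest WT library, replicate 3 being the lowest of all.

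The actin regulators Cfl1 (cofilin, which severs filaments), Pfn2 (profilin, which feeds monomers to their ends) and Tmsb4x (thymosin beta 4, which binds monomers) fell by 0.61, 0.52 and 0.66 on the log2 scale (adjusted p = 0.0234, 0.0343 and 0.0195). Tuba1b, another alpha-tubulin, and Nefl, the light neurofilament chain, fell by 0.56 and 0.58 (adjusted p = 0.0234 and 0.0286). Gm49450, a readthrough model over Tuba1b and Tuba1a, was also a DEG, so reads of these 3 models can be shared. Without Ogg1-/- replicate 2, without replicate 3, or without WT replicate 2 or 3, none of the 22 members was a DEG, although the median log2 fold change of the list stayed between -0.53 and -0.39 under all alternatives.

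The promoters of 4 of these genes are shown because the tubulin and actin genes were lower together. Only genes with exactly 1 RefSeq promoter window on GRCm38.p6 were used, which were 13 of the 22 members and 6 of the 7 DEGs. Each sequence below is the 120 bases before the start, on the gene's own strand, and capitals mark matches on either strand to the motifs searched, which were the GC box GGGCGG, the CCAAT box, the TATA motif TATAAA, the cAMP response motif TGACGTCA and the CArG box, the binding sequence of serum response factor.
Tuba1a, minus strand of chr15:98953502-98953621: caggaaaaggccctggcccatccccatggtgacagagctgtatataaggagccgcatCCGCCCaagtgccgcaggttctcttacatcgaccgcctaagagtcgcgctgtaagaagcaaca
Tuba1b, minus strand of chr15:98934391-98934510: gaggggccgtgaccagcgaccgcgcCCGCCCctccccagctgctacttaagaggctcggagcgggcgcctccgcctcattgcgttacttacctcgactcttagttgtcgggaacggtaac
Actg1, minus strand of chr11:120348496-120348615: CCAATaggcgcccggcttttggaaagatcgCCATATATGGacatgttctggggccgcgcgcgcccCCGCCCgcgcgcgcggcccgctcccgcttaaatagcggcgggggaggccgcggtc
Cfl1, plus strand of chr19:5490335-5490454: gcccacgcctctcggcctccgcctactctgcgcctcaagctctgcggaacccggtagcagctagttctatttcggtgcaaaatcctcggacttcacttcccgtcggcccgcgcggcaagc
In the 250 bases before the start, GGGCGG on either strand stood in 9 of 13 windows of the list, or 69.2%, against 32.7% of all 32851 windows. The 32851 were not limited to genes with a single window, as the windows of the list were. CCAAT stood in 5 of 13, or 38.5%, against 33.8%, and a CArG box in 1 of 13 against 1.47%, that of Actg1. TATAAA was in 1 of 13 windows against 12.4%, and TGACGTCA in 1 of 13 against 1.55%. For the ribosomal protein genes described next, GGGCGG stood in 23 of the 49 windows of genes with a single window, or 46.9%. These matches describe letters and not binding sites, and the motifs do not overlap each other in the 4 printed stretches.

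The list of cytosolic ribosomal protein genes had 77 tested members, of which 76 were below WT, with a median log2 fold change of -0.35, and 3 were DEGs. Their summed level was 966, 990 and 987 CPM in WT and 878, 792 and 760 CPM in Ogg1-/-, with no overlap. In 63 of the 77 genes the libraries of both genotypes did not overlap, against 19.3% of all tested genes. Rps6, which encodes the ribosomal protein phosphorylated downstream of mTORC1, had 15.5, 19.1 and 17.7 CPM in WT and 12.7, 11.1 and 12.0 CPM in Ogg1-/- (log2 fold change -0.55, standard error 0.11, adjusted p = 0.0310). Rps26 and Rpl8 fell by 0.52 and 0.58 (adjusted p = 0.0294 and 0.0397). The list median stayed between -0.39 and -0.30 under all alternatives, and none of the 77 was a DEG without Ogg1-/- replicate 2 or 3 or without WT replicate 2 or 3. These genes have many processed pseudogenes, with which reads can be shared.

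In the list of translation factors, 19 of 21 members were below WT and 1 was a DEG, with a median log2 fold change of -0.23. That was Eef1a1, which carries aminoacyl-tRNA to the ribosome, with 77.1, 81.1 and 81.1 CPM in WT and 59.7, 52.0 and 45.8 CPM in Ogg1-/- (log2 fold change -0.61, standard error 0.12, adjusted p = 0.0286). Of 26 chaperones, 23 were below WT and 2 were DEGs, with a median of -0.22. These were the cytosolic HSP90 genes Hsp90aa1, with 162, 192 and 188 CPM in WT and 139, 119 and 101 CPM in Ogg1-/-, and Hsp90ab1, with 205, 252 and 247 CPM against 179, 158 and 137 CPM. Their log2 fold changes were -0.59 and -0.57 (standard errors 0.11 and 0.12, adjusted p = 0.0229 and 0.0325). Ogg1-/- replicate 1 stood nearest to WT in Eef1a1 and in both HSP90 genes. Without Ogg1-/- replicate 3 none of the 3 was a DEG, and they were called in 1 (Eef1a1) and 2 (each HSP90 gene) of the 6 fits that left out 1 library.

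Lists of energy metabolism were also below WT. Of 20 genes of glycolysis and gluconeogenesis, 16 were below WT with a median log2 fold change of -0.28, and Gapdh, described above, was the DEG among them. Of 35 genes of respiratory complexes III to V, 33 were below WT with a median of -0.25. Cox5b, a cytochrome c oxidase subunit, had 11.2, 12.4 and 13.2 CPM in WT and 8.89, 8.35 and 7.12 CPM in Ogg1-/- (log2 fold change -0.59, standard error 0.13, adjusted p = 0.0401). Complex I had 34 of 37 members below WT, a median of -0.13 and the DEG Ndufb11 (log2 fold change -0.60, adjusted p = 0.0280). The citrate cycle list had 20 of 23 members below WT, a median of -0.11 and no DEG, and the proteasome list 29 of 30, a median of -0.16 and no DEG. Among 28 antioxidant genes, 23 were below WT with a median of -0.15, and Prdx5, a peroxiredoxin that reduces peroxides, was a DEG (log2 fold change -0.52, standard error 0.10, adjusted p = 0.0256). Cox5b was called in none of the 6 fits that left out 1 library, and Ndufb11 and Prdx5 only in the fit without Ogg1-/- replicate 1.

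**Figure D4:**
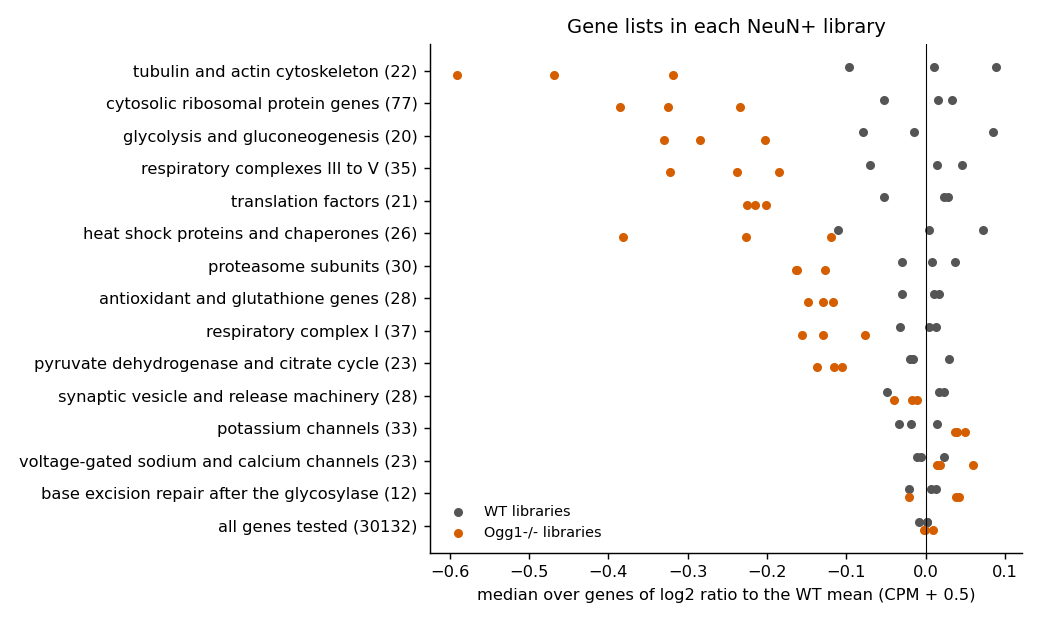
Median over the genes of each list of the log2 ratio to the WT mean (CPM + 0.5) in each NeuN+ library (horizontal axis), with 3 WT libraries in grey, 3 Ogg1-/- libraries in orange and the number of tested genes in brackets. In the upper 10 lists the Ogg1-/- libraries lie left of the WT libraries, furthest for tubulin and actin. In the synaptic vesicle list and over all genes they overlap. In the potassium channel list the Ogg1-/- libraries lie right of WT, at 0.04 to 0.05 against at most 0.01.

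Over the 319 genes of these 10 lists together, 295 were below WT, 17 were DEGs and the median log2 fold change was -0.23. Library by library, the median log2 ratio to the WT mean was -0.16, -0.24 and -0.29 in Ogg1-/- replicates 1, 2 and 3, and -0.06, 0.04 and 0.01 in WT replicates 1, 2 and 3. The order of the Ogg1-/- libraries was thus the same as in Tuba1a, with replicate 3, the library that stood apart, lowest. Gene structure moved with the fold change as well. In protein-coding genes whose exons make up 39.3% or more of their span, the median log2 fold change was -0.06 and 41 genes were lower DEGs, whereas in the quintile with the smallest share, up to 6.82%, it was 0.02 with 7 lower DEGs. The WT libraries themselves differed by this property, since the median log2 ratio in the upper quintile was -0.06, 0.04 and 0.02 in WT replicates 1 to 3 and lay between -0.06 and -0.04 in Ogg1-/-. The part of exon share, of depth and of replicate 3 in the lower lists was not tested.

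Most lists of neuronal signalling had medians nearer to that of all genes. Of 28 genes of synaptic vesicles and release, 13 were below WT, with a median log2 fold change of 0.01. The DEG among them was Vamp2, the vesicle SNARE of fast transmitter release, with 63.8, 64.1 and 69.9 CPM in WT and 50.9, 45.3 and 41.5 CPM in Ogg1-/- (log2 fold change -0.52, standard error 0.10, adjusted p = 0.0254), called in 1 of the 6 fits, that without Ogg1-/- replicate 1. There was no DEG among 7 NMDA receptor subunits (median 0.02), 9 AMPA and kainate receptor subunits (0.06), 7 metabotropic glutamate receptors (0.02), 12 GABA-A receptor subunits (-0.08), 33 potassium channels (0.05), 23 sodium and calcium channels (0.04) or 16 calcium/calmodulin-dependent kinases (-0.09). Of the GABA-A subunits 10 were below WT, and of the kinases 12, of which 3 passed the adjusted p without reaching the fold limit. The 29 semaphorins, plexins and neuropilins and the 33 ephrins, slits, netrins and their receptors of axon guidance held no DEG, with medians of 0.03 and 0.07. Immediate early genes had 14 of 22 members below WT, a median of -0.18 and no DEG. Jund, a subunit of the AP-1 factor, came nearest, at -0.43 (standard error 0.10, adjusted p = 0.0611). Over all tested genes 0.574% were DEGs, a share at which lists of these sizes can hold none.

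DNA repair and chromatin lists were near the median of all genes. Among 10 other DNA glycosylases, 5 were below WT and none was a DEG, and the 12 genes of the later steps of base excision repair had a median log2 fold change of 0.02 and no DEG. The flap endonuclease gene Fen1 had the smallest p of the latter, with a log2 fold change of -0.43 (standard error 0.15, adjusted p = 0.212). Mutyh had 1.05, 1.18 and 1.18 CPM in WT and 1.29, 1.04 and 1.27 CPM in Ogg1-/- (log2 fold change 0.07, adjusted p = 0.925). PRC2 is the complex that places the silencing mark H3K27me3. Its 12 tested genes had a median of -0.04, and 13 of the 40 developmental regulators listed as silenced by it were expressed enough to be tested, with a median of 0.06. Neither list held a DEG, nor did those of DNA methylation enzymes, histone deacetylases, p53 targets, interferon response, circadian clock, cholesterol synthesis or selenoamino acid enzymes. At the share of 0.574% over all tested genes, lists of these sizes can hold none.

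Direct tests of Ogg1-/- against the other knockouts asked where DKO or Mutyh-/- differed from Ogg1-/-. The comparisons with WT share the 3 WT libraries, so values are given side by side and the differences come from direct tests. DKO minus Ogg1-/- gave 65 DEGs (0.216% of tested genes), 16 higher (0.0531%) and 49 lower (0.163%) in DKO, of which 45 were also DEGs of Ogg1-/- against WT. Of the 29 chromosome 4 DEGs, 26 were lower in DKO than in Ogg1-/-. Gm17167 averaged 101 CPM in WT, 1235 in Ogg1-/-, 138 in DKO and 391 in Mutyh-/- (DKO minus Ogg1-/-, log2 difference -3.16, adjusted p = 9.45e-09), and Cntfr 48.0, 94.0, 54.2 and 64.4 CPM (log2 difference -0.79, adjusted p = 0.00195). Rcbtb2, Esd and Gm3952 were higher in DKO than in Ogg1-/-, by 0.75, 0.86 and 2.12 (adjusted p = 1.11e-05, 0.00170 and 5.55e-08).

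By contrast, none of the 16 chromosome 6 DEGs near Ogg1 and none of the 9 DEGs of the Mid1 stretches differed between DKO and Ogg1-/- by this call. Tspan11 averaged 7.60 CPM in Ogg1-/-, 8.48 in DKO and 0.691 in Mutyh-/-. It differed from Mutyh-/- (log2 difference -3.44, adjusted p = 4.80e-09), as did 9 of the 16 in all. Mid1 averaged 13.4 CPM in Ogg1-/-, 14.1 in DKO and 14.4 in Mutyh-/-, beside 68.6 in WT. Gm47283 and Erdr1 were instead higher in Mutyh-/- than in Ogg1-/-, by 2.47 and 2.31 on the log2 scale (adjusted p = 0.00427 and 0.00661), with 201 and 101 CPM in Mutyh-/-. Mutyh-/- minus Ogg1-/- gave 146 DEGs (0.485%), 70 higher (0.232%) and 76 lower (0.252%) in Mutyh-/-, 57 of them among the DEGs of Ogg1-/- against WT, and 521 without Mutyh-/- replicate 3. None of the 22 tubulin and actin genes and none of the 77 ribosomal protein genes was a DEG in either direct test. Their medians against WT were -0.44 and -0.28 in DKO and -0.32 and -0.18 in Mutyh-/-.

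The NeuN- fraction, which holds mainly glia, was used to ask whether the differences were found outside neurons. There, Ogg1-/- against WT gave 73 DEGs of 31863 tested genes (0.229%), and 41 genes were DEGs in both fractions, 23.7% of those of NeuN+ and 56.2% of those of NeuN-. All 41 had the same direction, 28 higher and 13 lower, and 21 of them lay in the chromosome 4 stretch. Gm17167 had a log2 fold change of 4.13 in NeuN- (adjusted p = 2.54e-06). Of the 13 lower genes, Esd and Zfp248 had log2 fold changes of -0.95 and -0.71 in NeuN- (adjusted p = 1.65e-04 and 5.45e-05). The 13 also held Erdr1 and genes of the Mid1 stretches. These were 3 of the 4 DEGs on chromosome X (Gm15247, Gm15726 and G530011O06Rik) and 2 of the 5 on chromosome Y (Mid1-ps1 and Gm47283). The tubulin and actin list had a median of -0.24 in NeuN- and the ribosomal list one of -0.21. All 22 and all 77 members were below WT there, against 14416 of the 28491 genes tested in both fractions. Neither list held a DEG, beside the share of 0.229% over all genes tested in NeuN-.

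The difference between both effects was tested in a fit of all 24 libraries. It passed an adjusted p of 0.05 in 18 of 33523 genes (0.0537%), 11 with the greater value in NeuN+ and 7 with the lower one. At an unadjusted p under 0.05 there were 2377. The fit took the libraries of both fractions as unpaired. Deviations from group means of same-numbered libraries correlated across the fractions at 0.149, 0.023 and 0.292 in Ogg1-/-. In WT these correlations were 0.011, 0.043 and 0.057. Other pairs ranged from -0.258 to 0.136 in Ogg1-/- and from -0.048 to 0.007 in WT. With same-numbered libraries of each genotype paired, 26 genes passed. Of the 18 genes, 8 lay within 20 Mb of Ogg1. Tspan11 rose by 3.21 in NeuN+ and by 0.59 in NeuN- on the log2 scale (difference 2.63, standard error 0.35, adjusted p = 0.00114). Grm7, a presynaptic metabotropic glutamate receptor gene at 2.22 Mb from Ogg1, had log2 fold changes of -0.16 in NeuN+ (adjusted p = 0.150) and -0.87 in NeuN- (adjusted p = 2.19e-04), a difference of 0.72 (standard error 0.10, adjusted p = 0.00252). Mid1 fell by 2.36 in NeuN+ and had a value of -0.55 in NeuN- (adjusted p = 0.172), a difference of -1.80 (standard error 0.17, adjusted p = 1.44e-05). No gene of the tubulin and actin or ribosomal lists passed this test. By the labels each fraction had its own lanes, so lane and fraction cannot be told apart.

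**Figure D5:**
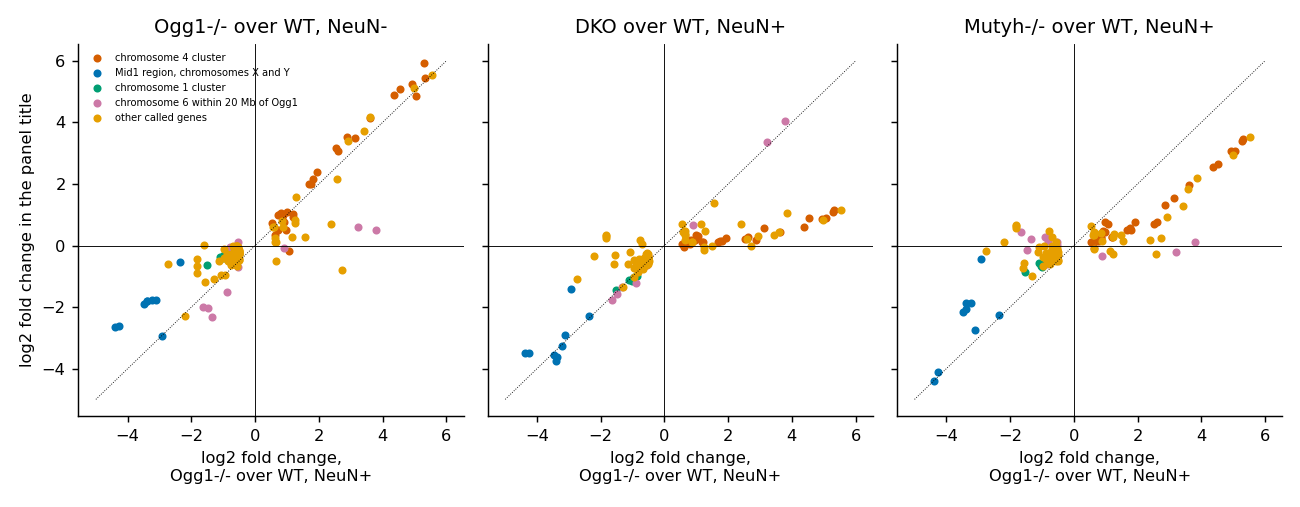
Log2 fold change of the DEGs of Ogg1-/- against WT in NeuN+ (horizontal axis) beside their log2 fold change in the comparison of each panel title (vertical axis), with 1 point per gene and the line of equal values dotted. The 2 right panels use the same WT libraries as the horizontal axis. The orange chromosome 4 genes lie near the line in NeuN- and far below it in DKO, whereas the pink point of Tspan11 at 3.21 lies near the line in DKO only.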

How the data were processed

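Per the labels, nuclear RNA of sorted hippocampal nuclei was sequenced in pairs with a SMARTer stranded kit. The authors aligned reads to GRCm38/mm10 with HISAT2 2.1.0 and deposited raw counts of properly aligned pairs per gene from featureCounts, without normalization. Their notes also name FastQC 0.11.9, SAMtools 1.10, R 4.3.2 and edgeR 3.42.4. The strand setting is not given in the sources used here. The re-analysis used edgeR 4.0.16 and limma 3.58.1 under R 4.3.3, and DESeq2 1.42.0 as an alternative. The 12 NeuN+ libraries of 4 genotypes were filtered with filterByExpr, scaled by TMM and fitted together, and Ogg1-/- was compared with WT, DKO and Mutyh-/- by the quasi-likelihood test of edgeR, with p-values adjusted after Benjamini and Hochberg. NeuN- libraries were fitted in the same way, and the difference between fractions in all 24 libraries. In NeuN+ the common dispersion gave a biological coefficient of variation of 0.0823. Intervals are 1.96 standard errors to each side and, like the SDs, treat the libraries as independent. No columns of per-sample values were left unmapped, and no pair of libraries of WT or Ogg1-/- in NeuN+ was a duplicate, since at least 70.7% of genes differed.

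Members and lists were chosen with earlier results of these data known. Named are Ogg1, Mutyh and Camk1, in each direction the 12 DEGs, and the 15 with a gene name, of smallest p, DEGs within 10 Mb of Ogg1, the 3 smallest p and every DEG of each of 51 lists, genes the study names, markers, and the 5 largest differences of each direct test. Gm10600, Ano2, Gapdh, Tex52 and other members of the position groups were named because the groups were described. Kirrel2, which lies outside the position groups, was named with Arhgap33os nearby. Positions came from GENCODE vM21 by symbol for 96.8% of tested genes. The test was checked on simulated counts. Alternatives were other size factors, filters, tests and thresholds, a replicate block, a fit of 6 libraries and fits without 1 library.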

Additional observations from a re-analysis of the deposited data

Results flagged for a closer look

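The Ogg1-/- effect differed between NeuN+ and NeuN- nuclei in 18 genes (edgeR's quasi-likelihood test of the difference, adjusted p under 0.05), given here as the log2 fold change in NeuN+ minus that in NeuN-. Genes on chromosome 6 within 20 Mb of Ogg1 were Gm15870 (3.32), Tspan11 (2.63), Gm15862 (1.16), Gm44596 (0.97), Gm20387 (0.87), Wnt5b (0.85), Grm7 (0.72) and Rimklb (-0.75). Gm15870, Tspan11 and Rimklb had changed in NeuN+, whereas Wnt5b, a Wnt ligand gene, had log2 fold changes of -0.10 in NeuN+ and -0.94 in NeuN-. On chromosome 14, Epsti1, an interferon-induced gene, differed by 1.46 and Enox1 by -0.48. In the Mid1 stretch of chromosome X, Mid1 differed by -1.80 and G530011O06Rik by -1.34. The other 6 were Arhgap33os (3.51), Gm3952 (-1.37), Slc5a11 (1.38), Ccdc190 (-1.09), Als2cl (-0.81) and Gm27882 (0.73). Of the 18, 7 were DEGs of Ogg1-/- against WT in NeuN+.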

How the results depend on the processing

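For Ogg1-/- against WT in NeuN+ nuclei (173 DEGs), the number of DEGs was 308 with no low-count filter, 332 by the likelihood ratio test, 305 in a fit of the 6 libraries alone and 331 with no fold limit, and 70 to 164 when 1 library was left out. For Mutyh-/- minus Ogg1-/- (146) it was 360 with no filter, 318 by the likelihood ratio test, 223 by DESeq2's Wald test and 96 to 521 without 1 library. In NeuN- (73) it was 168 by the likelihood ratio test, 179 by DESeq2, 147 in a fit of 6 libraries and 50 to 74 without 1 library. The difference between fractions (18 genes) gave 44 by the likelihood ratio test, 65 by DESeq2 and 12 to 17 without 1 library, and DKO minus Ogg1-/- (65) gave 52 to 73. The causes were not tested, except that leaving out a library leaves fewer samples. None of the 67 named DEGs changed sign, and the sign of the other DEGs was not checked. In contrast, 19 of the 51 list medians had values on both sides of 0. Of these medians, the furthest from 0 was 0.05. With the replicate number as a block, 235 genes were DEGs, 57 higher and 178 lower, 170 of them among the 173. Same-numbered WT and Ogg1-/- libraries had correlations of -0.014, -0.085 and -0.147 in their deviations from the group means, so the pairing is of numbers only. Of 67 named DEGs, DESeq2's Wald test lost 6 and the fits without 1 library 9 to 25. With 3 libraries a group, 24 of the 118 lower DEGs were called in all 6 fits without 1 library. Why the others were not was not tested.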
